A study of Mus musculus with 8 samples.

Results

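The genes described here are 35 components of TGF-beta, BMP and activin signalling, chosen as a list of named genes and read in dorsal skin of hairless mice. For each gene the brightest probe set (by mean over the 8 arrays) that names that gene alone was taken. All 35 had such a probe set, among 18193 genes that did. After the lowest 30% of genes by mean level were left out, 34 of the 35 remained among 12735 genes tested, and the BMP antagonist *Nog* did not.

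Skin of mice fed a collagen diet was read on 4 arrays and skin of mice fed a control diet on 4, labelled as biological replicates. The study had 16 mice, 8 on each diet, and the labels do not tie an array to a single mouse. All were female Hos:HR-1 mice, a hairless strain, put on the diets at 9 weeks of age for 12 weeks and sampled at 21 weeks. The collagen diet held 2 g of fish scale collagen hydrolysate, a mixture of collagen peptides, for each 100 g of the control diet, which was AIN-93G, a purified rodent diet that both groups received. The comparison asks whether expression in the skin differed between the diets.

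Ligands of the TGF-beta family bind pairs of type I and type II receptor kinases, which phosphorylate SMAD proteins that enter the nucleus with Smad4 and act on transcription. TGF-beta and activin ligands act mainly through Smad2 and Smad3, and BMPs mainly through Smad1 and Smad5. In skin, TGF-beta restrains keratinocyte division and promotes matrix production by fibroblasts, while BMPs hold hair follicle stem cells at rest and their antagonists, noggin and gremlin among them, release that hold. Secreted TGF-beta is kept latent by its own propeptide and by latent TGF-beta binding proteins in the matrix.

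The deposited log2 values differed very little between arrays. The within-diet SD of the 34 members tested ran from 4.29e-07 to 9.09e-04 on the deposited log2 scale, with a median of 5.92e-05, against a median of 1.94e-05 over all genes tested. The sources used here do not give how the values were summarized, and such differences are not fold changes of RNA. Values are therefore given as deviations from the gene's mean over the 8 arrays, divided by its pooled within-diet SD (written SD), with arrays in the order of replicates 1 to 4. Differences are collagen minus control diet in the same unit, with the 95% interval of limma's moderated fit. No detection calls or scan dates accompany the values used here. Markers of keratinocytes were among the brightest genes, with 6 of 6 tested at mean log2 values of 11.43 to 14.07, and 6 of 6 markers of dermal fibroblasts lay at 9.29 to 13.53. Whole skin was hybridised, so fewer cells of a type and less RNA per cell cannot be told apart.

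No member differed between the diets at the threshold used. In limma 0 of 34 had an adjusted p below 0.05, as did 0 of all 12735 genes (0% called), and the smallest adjusted p of a member was 0.759. At an unadjusted p below 0.05 stood 1 of 34, the corepressor gene *Tgif1*, which was lower on the collagen diet, against a background of 5.36% of all genes tested, or 4.15% counting lower genes alone. The diets did not overlap in 2 of 34, *Tgif1* and the receptor gene *Bmpr2*, both lower on the collagen diet, against 3.31% of all genes, or 2.53% counting lower genes alone. The collagen diet had the lower mean in 24 members and the higher in 10, and the median difference was -0.264 SD, where 54.5% of all genes tested were lower with a median of -0.0803 SD.

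**Figure D1:**
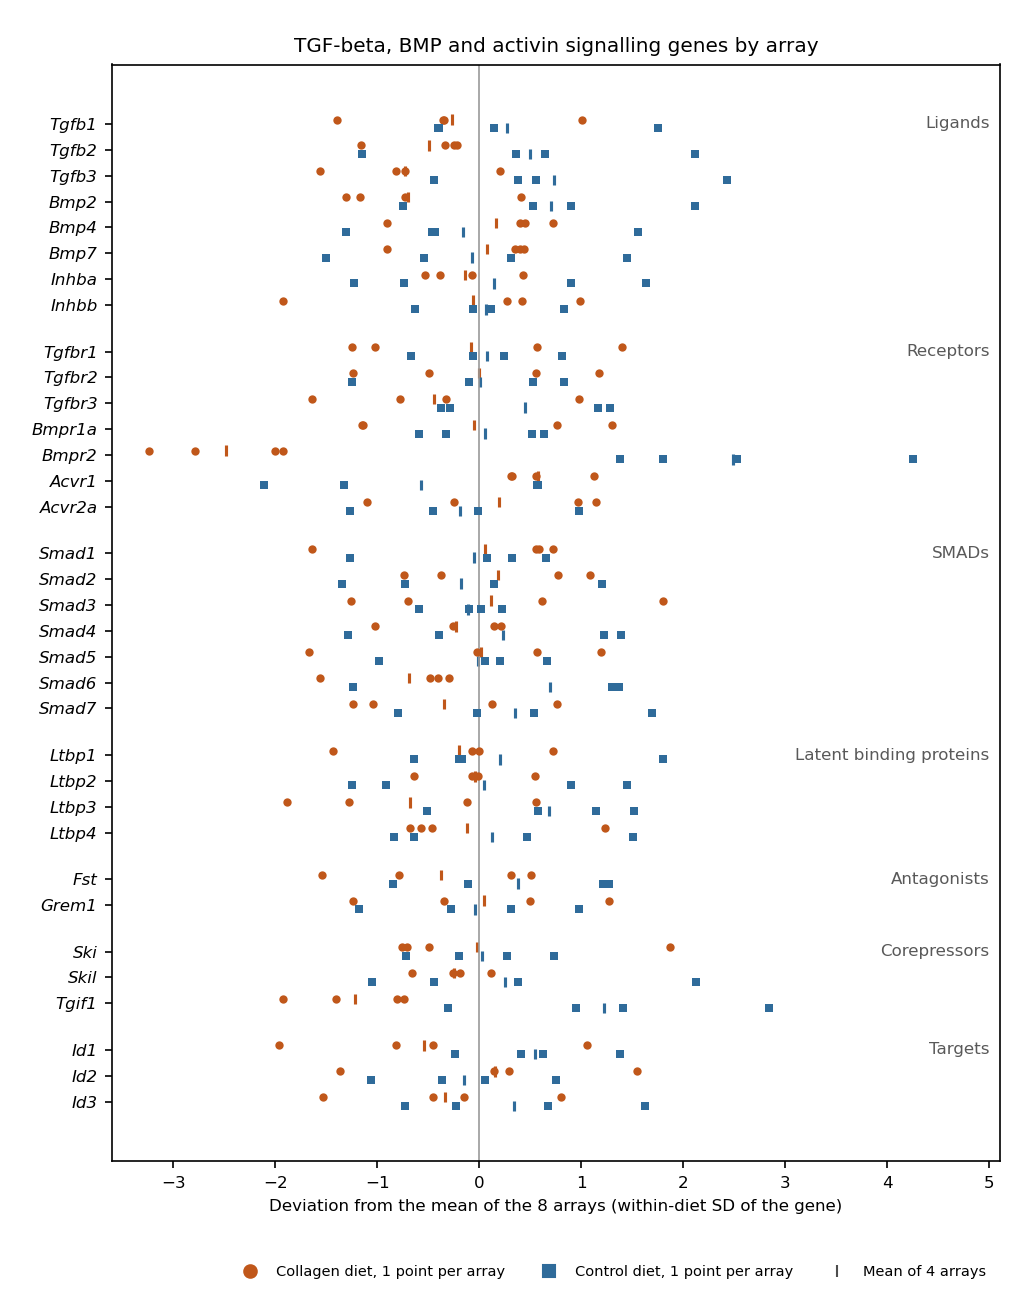
Deviation of each of the 34 members tested (rows, grouped by role) from its own mean over the 8 arrays, in within-diet SD (x axis). Circles are collagen-diet arrays, squares control-diet arrays and ticks the mean of 4. The diets are apart in *Bmpr2* and *Tgif1* and overlap in the other 32 members.

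The preponderance of lower members was not seen without 1 of the arrays, control replicate 4. Of the 34 members, 18, 9, 18 and 9 lay above their own mean in collagen replicates 1 to 4, against 14, 17, 19 and 26 in control replicates 1 to 4. Control replicate 4 was thus the array in which most members were high, with a median deviation of 0.938 SD, while its median over all genes was 0.136 SD. Collagen replicate 2 was the array with the lowest median, at -0.707 SD. Without control replicate 4, 17 of 34 members were lower, with a median of -0.0087 SD, and 53.7% of all genes were.

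Control replicate 4 and collagen replicate 1 stood apart in skeletal muscle genes. The mean deviation of 6 skeletal muscle markers, all 6 of which were tested, was -1.31 SD in collagen replicate 1 and -1.36 SD in control replicate 4. It ran from 0.244 to 0.824 SD in the other collagen-diet arrays and from 0.274 to 0.299 SD in the other control-diet arrays. The markers themselves had mean log2 values of 9.36 to 12.73, so that none was near the lower end of the scale. Without both arrays 16 of 34 members were lower, with a median of 0.0274 SD, where 55.5% of all genes were. The part of muscle tissue in the members' values was not tested.

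**Figure D2:**
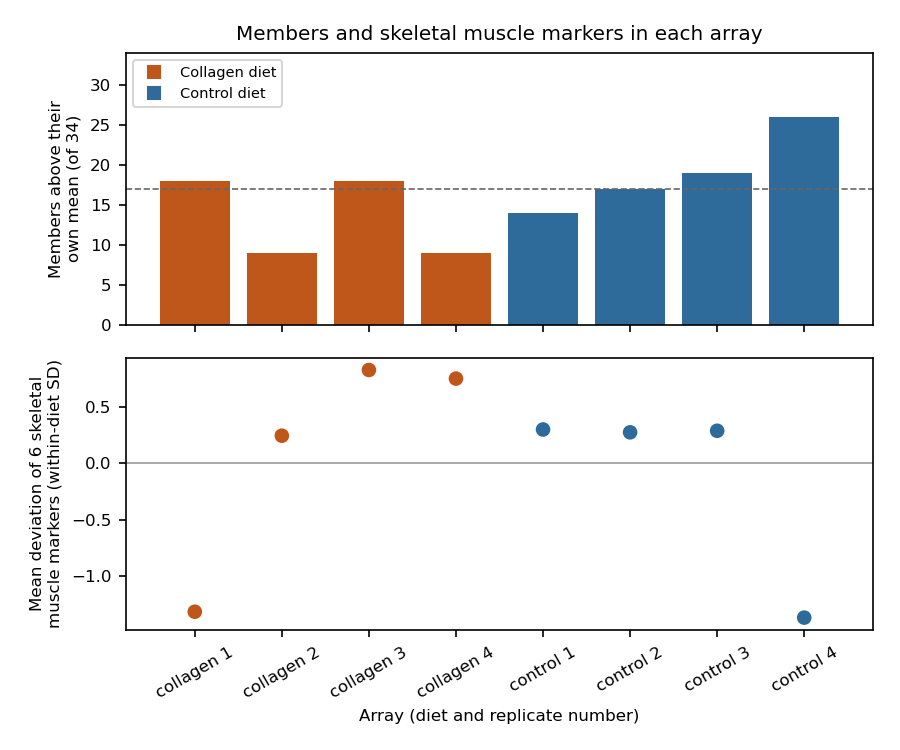
Upper panel, the number of the 34 members above their own mean in each array, with a dashed line at 17. Lower panel, the mean deviation of 6 skeletal muscle markers in within-diet SD. Control replicate 4, with 26 members above their mean, is also 1 of the 2 arrays low in muscle markers.

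Among the corepressors, which bind SMADs and dampen their transcriptional output, *Tgif1* (probe set 1422286_a_at) was the member with the smallest p. Its values were -0.812, -1.41, -1.92 and -0.742 SD in collagen-diet arrays, against 0.945, 1.40, -0.309 and 2.84 SD in control-diet arrays. The highest collagen-diet array lay below the lowest control-diet array, so the groups did not overlap, and control replicate 4 was the highest of all. *Tgif1* encodes a homeodomain protein that recruits histone deacetylases to SMAD complexes and also represses retinoid-responsive genes. The difference was -2.44 SD (interval -4.06 to -0.826), or -1.45e-04 ± 4.00e-05 (SE, n = 4 per diet) on the deposited log2 scale, with an unadjusted p of 0.00941 and an adjusted p of 0.759 in limma. It ranked 158th of 12735 genes by p, and an exact two-sided permutation test gave p = 0.0286, the smallest that 4 arrays against 4 allow. Only 1 probe set represents this gene.

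In SD units the difference of *Tgif1* was smaller in the rescaled data. It was -0.92 SD after quantile normalization (unadjusted p = 0.211 in limma) and -0.87 SD after centring each array on its median (0.236). There the within-diet SD was taken anew. The array medians differed by up to 3.69e-04 on the log2 scale, against an SD of 5.92e-05 for *Tgif1* as deposited. The smaller values thus do not show a smaller difference on the log2 scale. As deposited, the difference without control replicate 4 was -2.69 SD (unadjusted p = 0.0111 in limma). Leaving out any single array kept it between -3.89 and -2.13 SD. The hair follicle markers, 5 of 6 of them tested, were split in direction. *Krt25* (3.07 SD) and *Krt73* (2.64 SD) were higher on the collagen diet with no overlap, and *Hoxc13* (-2.12 SD) was lower with no overlap. *Krt71* (1.28 SD) and *Lgr5* (0.921 SD) overlapped between the diets. None had an adjusted p below 0.05 in limma. The mean deviation of the 5 was 0.121 to 1.25 SD in collagen-diet arrays and -1.04 to -0.194 SD in control-diet arrays. Their part in the values of *Tgif1* was not tested. Of 6 immune cell markers tested 3 were lower on the collagen diet, and 2 did not overlap, *Cd74* at -1.82 SD and *Lyz2* at 2.15 SD. Neither of these had an adjusted p below 0.05 in limma, and their part was not tested.

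The other corepressors of the list are the paralogs *Ski* and *Skil*, whose proteins bind Smad4 and are broken down when TGF-beta signals. *Skil*, itself induced by TGF-beta, stood at -0.258, -0.663, 0.114 and -0.192 SD in collagen-diet arrays, against 0.375, -0.450, -1.05 and 2.12 SD in control-diet arrays. The groups overlapped, and the collagen-diet values lay inside the range of the control-diet ones. The differences of *Skil* and *Ski* were -0.5 SD (interval -2.13 to 1.14) and -0.045 SD (interval -1.66 to 1.57).

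On the collagen diet 5 of 7 receptor genes tested were lower and 2 were higher (median difference -0.116 SD), and 0 had an unadjusted p below 0.05 in limma. *Bmpr2*, the type II receptor for BMPs, stood at -2.79, -2.00, -3.23 and -1.93 SD in collagen-diet arrays, against 1.80, 4.25, 1.38 and 2.52 SD in control-diet arrays. Even the highest collagen-diet array was below the lowest of the control diet. The difference was -4.98 SD, yet only -2.14e-06 ± 2.46e-06 (SE, n = 4 per diet) on the deposited log2 scale, since the within-diet SD of this probe set, 4.29e-07, stood at percentile 0.4 of the genes tested. limma draws such an SD toward those of genes of like level, which gave an interval of -18.7 to 8.75 SD and an unadjusted p of 0.416 (adjusted p = 0.999). Without that moderation the unadjusted p was 4.11e-04 and the adjusted p 0.374.

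Other probe sets of *Bmpr2* did not share this direction. They differed by 0.121 SD (1419616_at) and 1.13 SD (1441652_at), against -4.98 SD for the probe set tested (1434310_at). These other probe sets were dim, at mean log2 values of 6.84 and 6.56, against 10.85 for the one tested. After quantile normalization the tested probe set had equal means on both diets, as was so for 768 genes in all, and after median centring it differed by -0.16 SD. The array medians differed by up to 3.69e-04 on the log2 scale, against an SD of 4.29e-07 for this probe set. Neither rescaling can therefore tell whether its separation holds. The mean over all probe sets of the gene differed by 0.11 SD. That mean is set mainly by 1419616_at, whose within-diet SD was 5.50e-05, so it is not a separate reading of the tested probe set.

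The remaining receptors had overlapping groups. *Acvr1* (1448460_at), which encodes the type I receptor ALK2 of BMPs, had the smallest p of the receptors, with 0.553, 0.306, 1.12 and 0.319 SD in collagen-diet arrays, against 0.564, -2.12, -1.33 and 0.578 SD in control-diet arrays. Control replicates 2 and 3 were low, and control replicates 1 and 4 lay within the collagen-diet range, so the difference of 1.15 SD (interval -0.497 to 2.80) did not pass (unadjusted p = 0.141 in limma). Its 2 further probe sets differed by 1.28 SD (1416786_at) and 0.559 SD (1416787_at), in the same direction. *Tgfbr2*, the type II receptor that binds TGF-beta, had the brightest probe set of the receptors, at a mean log2 value of 11.40. It stood at -0.496, 0.553, 1.17 and -1.24 SD in collagen-diet arrays, against 0.526, -1.25, 0.832 and -0.103 SD in control-diet arrays. Both diets spread to either side of the mean, and the difference was -0.00497 SD (interval -1.62 to 1.61). *Tgfbr1*, its type I partner, differed by -0.158 SD and *Tgfbr3*, the co-receptor betaglycan, by -0.887 SD. *Bmpr1a*, a type I BMP receptor needed for hair differentiation, differed by -0.116 SD and *Acvr2a*, which binds activins, by 0.377 SD.

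**Figure D3:**
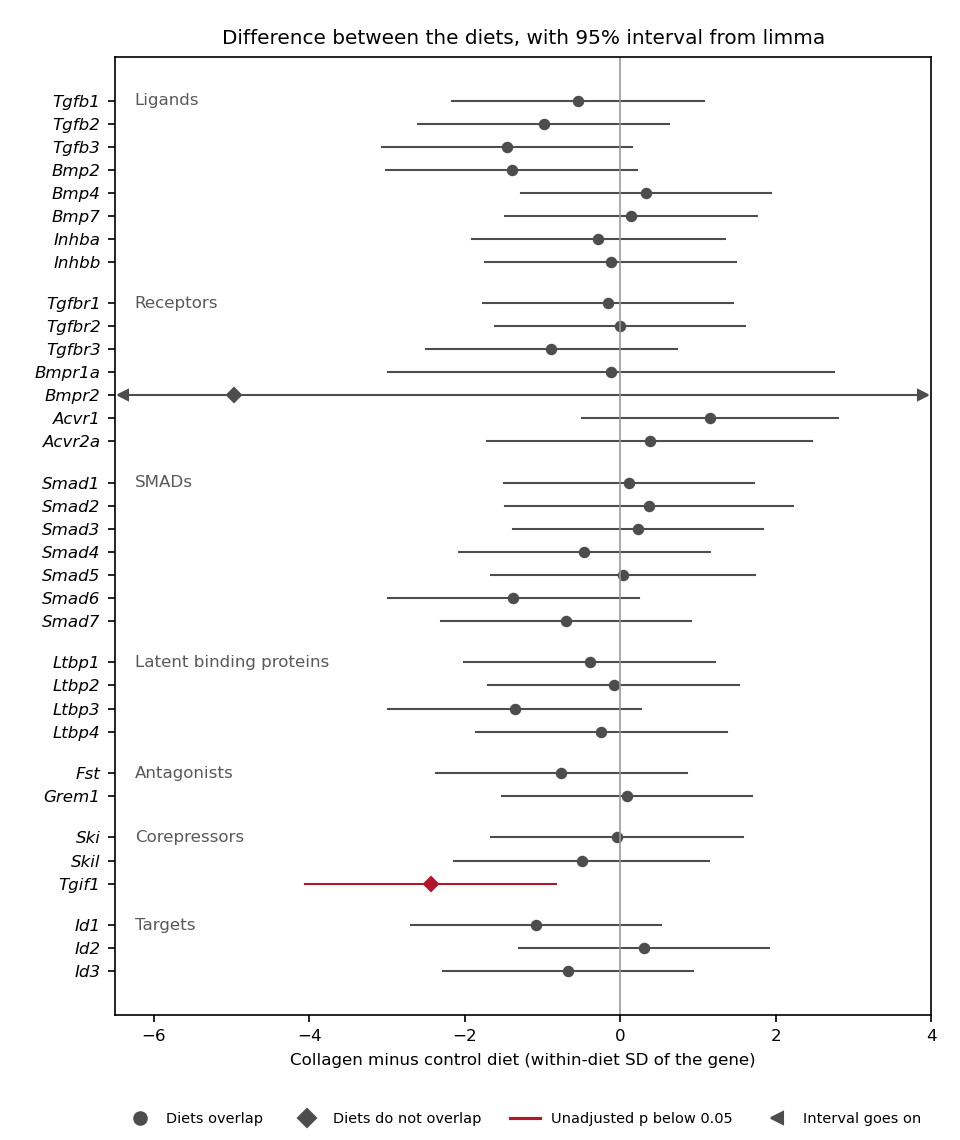
Difference of each member, collagen minus control diet, in within-diet SD (x axis), with the 95% interval from limma. Diamonds mark members whose diets do not overlap, red the 1 member with an unadjusted p below 0.05, and arrowheads the interval of *Bmpr2*, which runs on to -18.7 and 8.75 SD.

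On the collagen diet 6 of 8 ligand genes were lower and 2 were higher (median difference -0.412 SD), with 0 at an unadjusted p below 0.05 in limma. *Tgfb3* (1417455_at), the isoform tied to scar-poor repair, had the smallest p with -0.817, -1.57, 0.198 and -0.729 SD in collagen-diet arrays, against -0.450, 0.551, 2.43 and 0.382 SD in control-diet arrays. Control replicate 3 was the high array and the groups overlapped. The difference was -1.46 SD (interval -3.07 to 0.156, unadjusted p = 0.0697, adjusted p = 0.977 in limma). *Bmp2*, a BMP of the follicle and epidermis, stood at 0.412, -1.17, -0.732 and -1.30 SD in collagen-diet arrays, against 0.529, 2.12, -0.750 and 0.902 SD in control-diet arrays. Control replicate 3 fell among the collagen-diet arrays, and the difference was -1.40 SD (interval -3.02 to 0.220).

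The other TGF-beta isoforms were also lower with intervals that include 0. *Tgfb1*, the main isoform in wound repair, differed by -0.541 SD and *Tgfb2*, an isoform that promotes follicle regression in mice, by -0.986 SD. The 3 further probe sets of *Tgfb2* differed by -0.632 SD (1423250_a_at), -0.284 SD (1438303_at) and -0.788 SD (1450922_a_at), all in the direction of the one tested. The further probe set of *Tgfb1* (1445360_at), at 0.686 SD, went the other way. *Bmp4* differed by 0.329 SD and *Bmp7* by 0.143 SD, both BMPs that take part in follicle development.

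The activin subunit genes were near 0. *Inhbb*, which encodes the beta B subunit of activins and inhibins, had the brightest probe set of the ligands. Its values were 0.987, -1.93, 0.273 and 0.417 SD in collagen-diet arrays, against -0.633, -0.0636, 0.117 and 0.828 SD in control-diet arrays. Collagen replicate 2 was the lowest array and collagen replicate 1 the highest, with the control diet between them. *Inhbb* differed by -0.125 SD (interval -1.74 to 1.49) and *Inhba*, of activin A, by -0.282 SD (interval -1.91 to 1.34).

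The 4 latent binding protein genes all had the lower mean on the collagen diet (median difference -0.32 SD), with 0 at an unadjusted p below 0.05 in limma. These large matrix proteins hold latent TGF-beta beside fibrillin microfibrils, apart from *Ltbp2*, whose protein does not bind latent TGF-beta. *Ltbp3* (1438312_s_at) stood at 0.559, -1.27, -0.119 and -1.89 SD in collagen-diet arrays, against 0.577, 1.52, 1.14 and -0.511 SD in control-diet arrays. Collagen replicates 2 and 4 were the lowest, while control replicate 4 fell below the other collagen-diet arrays. The difference was -1.36 SD (interval -2.99 to 0.266, unadjusted p = 0.0877, adjusted p = 0.999 in limma). A further probe set of *Ltbp3* (1418049_at) differed by -1.74 SD, with an unadjusted p of 0.038 and an adjusted p of 0.869 in limma's fit of all 24461 probe sets of 1 gene symbol. *Ltbp1* differed by -0.394 SD, *Ltbp2* by -0.086 SD and *Ltbp4*, which also helps elastic fibres assemble, by -0.245 SD.

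Control replicate 4 was the lowest control-diet array for *Ltbp3* and for *Tgfb2*. Without it each of these genes had an unadjusted p below 0.05, but neither passed after adjustment (smallest adjusted p of a member 0.714 in limma). The diets did not overlap there in *Ltbp3*, *Tgfb2*, *Bmpr2* and *Tgif1*. The share of all genes without overlap was not taken in that setting, and fewer arrays separate more easily. For *Ltbp3* and *Tgfb2* the separation followed from leaving out their low array. In the same setting *Ltbp1* (0.197 SD), *Ltbp2* (0.463 SD) and *Ltbp4* (0.262 SD) were higher on the collagen diet, so that 1 of the 4 latent binding protein genes was lower. There 3 of 34 members were at an unadjusted p below 0.05, where 5.4% of all genes tested were.

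The secreted antagonists gave 1 lower and 1 higher gene. *Fst*, which encodes follistatin and neutralises activins, stood at 0.307, 0.506, -0.789 and -1.55 SD in collagen-diet arrays, against -0.842, 1.27, 1.21 and -0.112 SD in control-diet arrays. The groups overlapped widely, and the difference was -0.762 SD (interval -2.38 to 0.854). Its further probe set (1421365_at) differed by -0.807 SD. *Grem1*, gremlin, a BMP antagonist of dermal fibroblasts, differed by 0.0883 SD (interval -1.52 to 1.70). *Nog*, noggin, lay below the filter at a mean log2 value of 6.4, where the filter stood at 6.68. Without the filter *Nog* differed by -0.242 SD (unadjusted p = 0.730 in limma).

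On the collagen diet 3 of 7 SMAD genes were lower and 4 were higher (median difference 0.0329 SD). The receptor-regulated SMADs of the BMP branch, *Smad1* and *Smad5*, differed by 0.111 and 0.033 SD, and those of the TGF-beta branch, *Smad2* and *Smad3*, by 0.369 and 0.230 SD. *Smad4*, the partner shared by both branches, had the brightest probe set of the SMADs. It stood at 0.145, -1.03, -0.257 and 0.212 SD in collagen-diet arrays, against -1.29, -0.394, 1.39 and 1.22 SD in control-diet arrays. The collagen-diet values lay inside the control-diet range, and the difference was -0.464 SD (interval -2.08 to 1.15). Both further probe sets of *Smad4* were lower too, at -1.07 SD (1422485_at) and -1.34 SD (1422487_at).

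The inhibitory SMADs, which block receptor-regulated SMADs and are induced by the pathway they restrain, were both lower. *Smad6* (1422771_at), mainly an inhibitor of BMP signals, stood at -0.296, -1.57, -0.481 and -0.411 SD in collagen-diet arrays, against -1.24, 1.33, 1.30 and 1.37 SD in control-diet arrays. Only control replicate 1 kept the groups from separating. Its difference was -1.38 SD (interval -2.99 to 0.239, unadjusted p = 0.0831, adjusted p = 0.992 in limma). *Smad7*, which restrains both branches, differed by -0.699 SD (interval -2.31 to 0.913). Without control replicate 1 *Smad6* differed by -4.41 SD, with an unadjusted p of 0.0012 and an adjusted p of 0.451 in limma. In that setting 5.68% of all genes had an unadjusted p below 0.05. Leaving out the array that overlapped separates the groups and shrinks the SD by construction, so these values are no evidence of a difference. After median centring of all 8 arrays *Smad6* differed by -0.291 SD (unadjusted p = 0.684 in limma). The array medians differed by up to 3.69e-04 on the log2 scale, against an SD of 1.76e-05 for *Smad6* as deposited. The smaller centred value in SD units therefore does not show a smaller difference on the log2 scale. The probe set of *Smad6* was dim, at percentile 3.53 of the genes tested by mean level.

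The ID genes, whose proteins lack a DNA-binding domain and sequester basic helix-loop-helix factors, are direct targets of BMP-activated SMADs and serve as a readout of the pathway. *Id1* (1425895_a_at) stood at 1.06, -1.96, -0.817 and -0.453 SD in collagen-diet arrays, against 0.625, 0.407, -0.238 and 1.38 SD in control-diet arrays. Collagen replicate 1 fell among the control-diet arrays, and the difference was -1.09 SD (interval -2.70 to 0.526, unadjusted p = 0.153 in limma). *Id2* (1435176_a_at), with the brightest probe set of the targets, stood at 1.54, 0.145, -1.37 and 0.295 SD in collagen-diet arrays, against 0.0569, -1.06, -0.363 and 0.753 SD in control-diet arrays. Both the highest and the lowest array of *Id2* were on the collagen diet, and the difference was 0.307 SD (interval -1.30 to 1.92). *Id3* (1416630_at) stood at 0.797, -1.53, -0.152 and -0.455 SD in collagen-diet arrays, against -0.730, 0.674, -0.225 and 1.63 SD in control-diet arrays, a difference of -0.672 SD (interval -2.28 to 0.939). For *Id1* and *Id3* alike, collagen replicate 2 was the lowest array and control replicate 4 the highest.

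Without collagen replicate 1, which fell among the control-diet arrays for *Id1*, that gene had an unadjusted p below 0.05. So did *Bmp2*, *Ltbp3* and *Tgif1* in the same setting, all lower, and the smallest adjusted p of a member was 0.872 in limma. Of all genes 5.47% had an unadjusted p below 0.05 in that setting. The diets did not overlap there in *Id1*, *Bmpr2* and *Tgif1*, but the share of all genes without overlap was not taken. For *Id1* the separation followed from leaving out the array that overlapped. Collagen replicate 1 is 1 of the 2 arrays that were low in muscle markers.

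No pair of SMAD-induced genes passed a test of correlation across the 8 arrays after adjustment. Of 15 pairs among 6 such genes (*Id1*, *Id2*, *Id3*, *Smad6*, *Smad7* and *Skil*), *Id1* and *Id3* had the highest Pearson correlation, r = 0.83 (exact permutation p = 0.0115, adjusted p = 0.172 over the 15 pairs) with Spearman's rho = 0.690 (exact permutation p = 0.0694, adjusted p = 0.347). With the diet means removed r was 0.807. It was 0.479 without the 2 arrays farthest from the median of *Id1*, collagen replicate 2 and control replicate 4, so the size of r rests on those arrays, though leaving out extremes also narrows the range. *Id3* ranked 99th of 12734 genes by its correlation with *Id1*, that is, 0.777% of genes correlated at least as closely. *Id3* and *Smad6* followed with r = 0.749 (exact permutation p = 0.0316, adjusted p = 0.237) and rho = 0.833 (exact permutation p = 0.0154, adjusted p = 0.231), and r = 0.477 without the 2 arrays farthest from the median of *Id3*. *Id1* and *Id2* gave r = 0.426 (exact permutation p = 0.295, adjusted p = 0.492) and rho = 0.5 (exact permutation p = 0.216, adjusted p = 0.521), and *Id2* and *Smad7* had the lowest r, -0.372 (exact permutation p = 0.367, adjusted p = 0.550), with rho = -0.357 (exact permutation p = 0.389, adjusted p = 0.584).

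**Figure D4:**
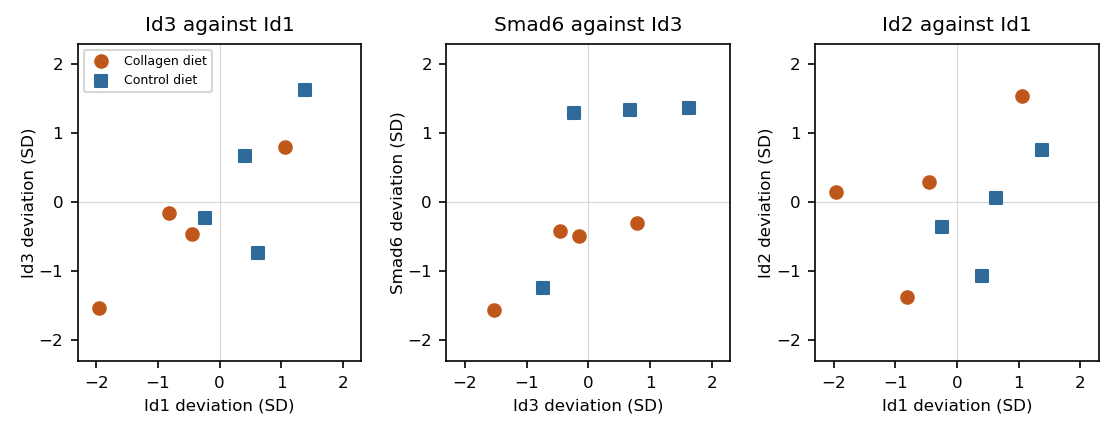
Deviations of *Id3* against *Id1*, *Smad6* against *Id3* and *Id2* against *Id1* in the 8 arrays, in within-diet SD on both axes. Circles are collagen-diet arrays and squares control-diet arrays. In the first panel collagen replicate 2 lies at the lower left and control replicate 4 at the upper right.

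The upstream sequences of *Id2*, *Id3* and *Smad6* are shown because these are the 3 of the 6 paired genes that matched the promoter table. They are the 250 bases before each gene's start from RefSeq, build GRCm38.p6, written 5′ to 3′ on the strand of the gene, with matches on either strand to GGCGCC, a GC-rich motif bound by BMP-activated SMADs, or to CAGAC, the core of the SMAD binding element, in capitals. The motifs can share a base at their ends, and none of the windows shown holds both. The windows are chr12:25096093-25096342 on the minus strand for *Id2*, chr4:136143572-136143821 on the plus strand for *Id3* and chr9:64022060-64022309 on the minus strand for *Smad6*.
Id2: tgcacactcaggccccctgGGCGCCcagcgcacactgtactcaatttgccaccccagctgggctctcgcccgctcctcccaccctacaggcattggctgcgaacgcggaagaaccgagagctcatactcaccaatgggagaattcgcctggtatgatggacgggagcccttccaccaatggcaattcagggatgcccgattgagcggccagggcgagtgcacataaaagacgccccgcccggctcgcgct
Id3: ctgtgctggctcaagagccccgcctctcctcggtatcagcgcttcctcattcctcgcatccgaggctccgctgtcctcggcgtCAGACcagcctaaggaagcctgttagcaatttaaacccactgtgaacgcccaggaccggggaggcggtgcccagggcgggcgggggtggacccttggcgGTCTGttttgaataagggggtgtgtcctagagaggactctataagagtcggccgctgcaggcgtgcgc
Smad6: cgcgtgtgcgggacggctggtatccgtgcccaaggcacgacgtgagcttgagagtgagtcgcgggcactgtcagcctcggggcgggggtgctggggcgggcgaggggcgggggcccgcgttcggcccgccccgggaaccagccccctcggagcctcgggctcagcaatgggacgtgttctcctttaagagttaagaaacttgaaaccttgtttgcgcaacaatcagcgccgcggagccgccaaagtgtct
The *Id2* window holds 1 GGCGCC and 0 CAGAC, that of *Id3* 0 GGCGCC and 2 CAGAC, and that of *Smad6* neither. Over all 32851 such windows 9.59% held GGCGCC and 42.2% held CAGAC. For the members, 24 of 35 matched the table by symbol, with 34 windows, of which 26.5% held GGCGCC and 41.2% held CAGAC. Some genes had several windows, a few of them overlapping. By gene, 8 of the 24 held GGCGCC in a window and 11 held CAGAC. The share by gene was not taken over all genes, and no test of the members' shares was run. A match is a run of letters and not a measured binding site. Among the members with GGCGCC in a window were *Bmpr2*, *Bmpr1a*, *Grem1* and *Ski*, and none of the 5 windows of *Tgif1* held it.

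Further probe sets gave a mixed second reading of the members. Above the filter on probe sets lay 30 of them, for 18 of the members, and 15 of 30 (50%) had the direction of the tested probe set. For the further probe sets of all genes tested the share was 59.1% of 10471. At an unadjusted p below 0.05 in limma stood 3 of 30 (10%), against 6.58% of the further probe sets of all genes and 5.63% of all 24461 probe sets fitted, and all 3 were lower on the collagen diet. They belong to *Ltbp3*, to *Bmp7* (1418910_at, -1.80 SD, where the tested probe set gave 0.143 SD) and to *Acvr2a* (1451004_at, -1.73 SD, where the tested probe set gave 0.377 SD). The diets did not overlap for that probe set of *Acvr2a*, nor for a probe set of *Bmpr1a* (1451729_at) at 2.54 SD, a share of 6.67% against 3.83% of the further probe sets of all genes and 3.42% of all probe sets fitted. The smallest adjusted p of all probe sets fitted was 0.101.

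Beyond the list, 99 other genes of these pathways in 7 lists were read in the same fit. Of these 88 had a probe set of their own and 65 were tested, of which 35 had a lower and 30 a higher mean on the collagen diet, with a median of -0.0769 SD, against 54.5% lower and -0.0803 SD over all genes. In limma 0 of 65 passed, with a smallest adjusted p of 0.668, and 4 of 65 stood at an unadjusted p below 0.05, of which 2 were lower and 2 higher, where 5.36% of all genes did. The lower ones were *Cdkn1a*, the cell cycle inhibitor p21 that TGF-beta induces, at -2.76 SD (unadjusted p = 0.00526), and *Trim33*, which ubiquitinates Smad4, at -1.66 SD (0.0492). The higher ones were *Bambi*, a decoy receptor without a kinase domain, at 1.89 SD (0.0283), and *Acta2*, smooth muscle actin of myofibroblasts and muscle, at 2.43 SD (0.0186). The diets did not overlap in *Cdkn1a*, *Bambi* and *Acta2*, 3 of 65 genes, where 3.31% of all genes did not.

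By list, the further receptors and co-receptors had 3 lower and 6 higher genes of 9 tested, with *Rgma* at -1.68 SD and *Acvr1b*, the activin type I receptor, at -1.5 SD after *Bambi*. Further ligands had 3 lower and 3 higher of 6 tested, with *Gdf3* at 1.20 SD, *Amh* at 0.743 SD and *Gdf9* at -0.498 SD. Genes of latency and activation had 4 lower and 2 higher of 6 tested, with *Itgb8*, an integrin chain that releases active TGF-beta, at -1.47 SD, *Fbn2* at 0.851 SD and *Itgav* at 0.633 SD. Further antagonists had 6 lower and 2 higher of 8 tested, led by *Sostdc1*, a BMP and WNT inhibitor of the follicle, at -1.21 SD, with *Nbl1* at -0.574 SD and *Chrdl1* at -0.559 SD. No gene named from these 4 lists passed after adjustment.

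Further intracellular regulators had 10 lower and 5 higher genes of 15 tested, with *Nedd4l*, a ubiquitin ligase for SMADs, at -1.10 SD and *Tgif2*, the paralog of *Tgif1*, at -1.05 SD after *Trim33*. TGF-beta and activin target genes were split, with 7 lower and 7 higher of 14 tested, and *Pmepa1*, a feedback inhibitor, differed by -1.24 SD. BMP target genes other than *Id1*, *Id2* and *Id3* had 2 lower and 5 higher of 7 tested, with a median of 0.775 SD. Most of them were dim. By mean level *Id4* stood at percentile 86.4 of the genes tested, and the others at 0.196 (*Atoh8*) to 23.9 (*Dlx3*). The smallest p was that of *Dlx3*, a homeobox gene of epidermis and follicle, at 1.5 SD (unadjusted p = 0.0663), with *Hey1* at 0.999 SD and *Dlx5* at -0.804 SD. None of the genes named here passed after adjustment in limma.

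The direction of the members followed the scaling of the arrays as well as the choice of arrays. After quantile normalization 26 of 34 members were lower, where 64.5% of all genes were, and after median centring 31 of 34 were, where 86.5% of all genes were. The medians of the 8 arrays differed by up to 3.69e-04 on the log2 scale, which is larger than the within-diet SD of most members.

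**Figure D5:**
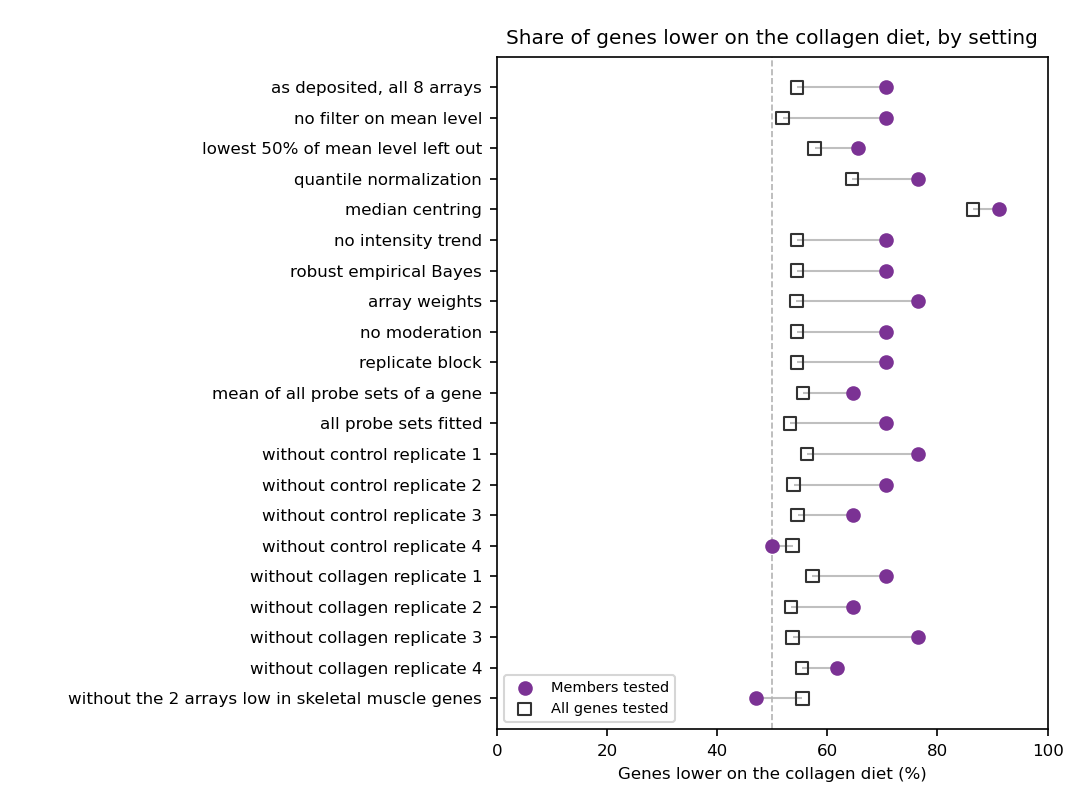
Percent of members (filled circles) and of all genes tested (open squares) that were lower on the collagen diet, by setting. The members lie above all genes in the data as deposited, at 70.6% against 54.5%, and below them when control replicate 4 was left out or both arrays with low muscle markers were.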

How the data were processed

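The authors deposited 1 table of log2 expression values, 1 column per array and 45101 probe sets. The log2 unit was judged from the values, which ran from 5.34 to 14.27. R 2.7.2 is named in the submitters' processing notes. The sources used here give neither summarization nor normalization. Samples were grouped by title. After 64 control probe sets were set aside, 34945 probe sets named 1 gene symbol in the platform annotation, 932 several and 9160 none, and 34741 of the first kind matched the gene table by Entrez ID. The 30% of genes with the lowest mean were not tested.

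The test was two-sided and came from limma 3.58.1 under R 4.3.3 (lmFit and trended eBayes, Benjamini-Hochberg adjustment over all 12735 genes, threshold 0.05), with 6 residual and 0.613 prior degrees of freedom. The fit was tested on simulated data. Single values were compared by exact permutation over all 70 splits into 4 and 4. No pair of arrays shared more than 0.0155% of values. Precision rests on how the 4 arrays of a diet varied, and background signals were not used here. Log2 differences under 1e-12 were taken as equal values.

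The members and lists were chosen with earlier results of these data known. All members are named, and array values are given for members with an unadjusted p below 0.05 or diets that do not overlap, and for the member with the smallest p and the brightest probe set in each role. *Bmp2* and *Id3* were added after their values were seen, as were the 6 genes compared in pairs and the sequences shown. Of each pathway list up to 3 genes with the smallest p are named. Alternatives were other filters, scalings, variance models and probe set rules, the replicate number as a block, and leaving out arrays.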

Additional observations from a re-analysis of the deposited data

Results flagged for a closer look

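In 7 of 68 groups (34 members on 2 diets) 1 array lay far from the other 3 by Dixon's criterion. Chance alone meets it in about 1 of 20 groups when groups are independent. The groups here come from the same arrays, and the share over all genes tested was not taken. Whether members were marked in this way more often than other genes was therefore not tested. *Smad6* was so marked on both diets, with collagen replicate 2 at -1.57 SD and the other collagen-diet arrays at -0.481 to -0.296 SD, and control replicate 1 at -1.24 SD and the other control-diet arrays at 1.30 to 1.37 SD. *Tgfb2* in collagen replicate 1 was at -1.16 SD, with the other collagen-diet arrays at -0.339 to -0.220 SD. *Bmp7* in collagen replicate 4 was at -0.907 SD, with the others at 0.354 to 0.439 SD. Collagen replicate 3 was the distant array for *Smad1* at -1.64 SD (others 0.551 to 0.726 SD), for *Ltbp4* at 1.23 SD (others -0.676 to -0.467 SD) and for *Ski* at 1.87 SD (others -0.756 to -0.494 SD).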

How the results depend on the processing

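No setting brought a member to an adjusted p below 0.05 in limma, and the smallest adjusted p of a member in any setting was 0.374, that of *Bmpr2* without moderation. Over all genes 0 passed, except 1 when the filter took the lowest 50%, and leaving out single arrays gave 0 to 1. The count of members at an unadjusted p below 0.05, which was 1, became 0 after quantile normalization and after median centring, 2 without moderation, 3 with a gene's probe sets averaged and 3 without both arrays of low muscle markers. It was 1 to 4 when single arrays were left out, with 3 without control replicate 1 or control replicate 4, 2 without control replicate 3 and 4 without collagen replicate 1. Of all genes 0.573% and 0.612% were at an unadjusted p below 0.05 after quantile normalization and median centring, and 4.32% to 6.18% in the other settings. With the replicate number as a block the count was 2, with *Tgfb3* added. Arrays of the same number did not deviate together (correlations of -0.0717 to 0.185, and 1 of 4 arrays closest to its own number), so the numbers were not taken to pair the arrays. *Bmpr2* had equal diet means after quantile normalization, as did *Tgfbr2* and *Smad5*. With its probe sets averaged *Bmpr2* turned to 0.11 SD, a mean set mainly by 1419616_at. The sign of 6 members turned after quantile normalization, of 7 after median centring, of 8 with probe sets averaged, of 12 without both arrays of low muscle markers, and of 2 to 8 when single arrays were left out. The cause was not tested. Detection was limited by 4 arrays per diet and by scaling, with signal over background not analysed here.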
